A study of Mus musculus with 16 samples.

Results

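The basement membrane genes described here are 10 genes chosen by name, Col4a1, Col4a2, Lama1, Lama5, Lamb1, Lamc1, Nid1, Nid2, Hspg2 and Sparc, of the 46983 genes in a count table from mouse embryonic stem cells (ESCs). Gene identifiers were matched to mouse symbols and all 10 were found. All 10 also passed the filter on low counts, at least 1 CPM (read counts scaled to library size) in at least 10 of the 16 libraries, which kept 12805 genes. The cells were 46C ESCs of strain 129Ola, a line with a GFP reporter for Sox1, grown on gelatin with leukaemia inhibitory factor. They were transfected for 48 hr with siRNA against RAM, the activator of the mRNA cap methyltransferase RNMT, or with non-targeting control siRNA. RNA was sequenced from the input, 10% of the cytoplasmic extract, and from polysomes, sucrose gradient fractions 17 to 22 of the remaining extract. This gave 4 groups of 4 libraries, control input, RAM siRNA input, control polysomes and RAM siRNA polysomes, with replicates numbered 1 to 4 in each. Input RNA was purified with Trizol, and polysome RNA with phenol and chloroform followed by precipitation with LiCl. All cells carried the reporter and met cycloheximide before lysis, and all came from 1 cell line, so the replicates show the spread between cultures of that line.

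A basement membrane is a thin sheet of extracellular matrix under epithelia. Laminins, trimers of an alpha, a beta and a gamma chain, polymerise on the cell surface, and type IV collagen, built from alpha chains that wind into a triple helix, forms another network. Nidogens and the heparan sulfate proteoglycan perlecan, the product of Hspg2, link the networks, and Sparc, a secreted calcium-binding glycoprotein, binds type IV collagen. In the early embryo, laminin is deposited between the epiblast and the primitive endoderm, and ESCs in culture make laminin as well. All of these proteins are secreted, so their mRNAs are translated on the endoplasmic reticulum.

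Col4a1 (chr8:11198423-11312826, minus strand) and Col4a2 (chr8:11312805-11449287, plus strand, both GRCm38) are arranged head to head, and their levels are set side by side below. Their annotated start sites lie 21 bases apart and their first exons share 22 bases. Of the 10 members, 7 had an entry in a RefSeq table of promoters (GRCm38.p6, 250 bases before to 50 after the start site), and the windows of the collagen pair shared 78 bases. Short stretches of the plus strand are shown for the motif matches they hold beside the start sites, with the motif in capitals. The upper stretch, chr8:11312797-11312826, covers the 22 shared bases and has a GC box (GGGCGG or, on the other strand, CCGCCC) between the start sites, and the lower, chr8:11312763-11312792, has CCAAT (or ATTGG), which lies upstream of the Col4a2 start and is not the match counted in the Col4a1 window.
GC box: ccctcggcagtgcgcGGGCGGcgtctccaa
CCAAT: gaggagctccCCAATttgttggcgctgccc
Over all 32817 promoters of the table, 35.6% held the GC box and 37.4% held CCAAT on either strand. Among the other 5 members with an entry, the GC box was matched in the windows of Hspg2, Lama5, Lamb1 and Nid1, CCAAT in those of Lamb1 and Nid1, and neither in that of Sparc.

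The libraries held 16647523 to 20147833 counts. Ramac, the gene of RAM, averaged 10.7 CPM (SD 0.606, n = 4) in control input against 2.998 CPM (SD 0.232, n = 4) after RAM siRNA. In polysomes it averaged 9.19 CPM (SD 3.69) and 1.53 CPM (SD 1.09). The libraries labelled RAM siRNA lay below those labelled control for Ramac in both fractions, though in RAM siRNA polysomes it had only 5 to 45 counts. The lowest count of any member in any library was 163, for Col4a2 in control polysome replicate 3 and in RAM siRNA polysome replicate 4.

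The polysome libraries of replicate 2 stood apart for these genes. All 10 members had their highest value of the group in replicate 2 in control polysomes, and again in RAM siRNA polysomes, where 25.6% and 38.5% of the 12805 genes did so. The ratio of replicate 2 to the mean of the other 3 libraries had a median of 2.18 over the members in control polysomes (range 1.26 to 3.62) and of 4.46 in RAM siRNA polysomes (range 1.65 to 7.75), against 0.982 and 0.989 over all genes tested. In input the members' medians were 1.06 and 1.11. This displacement moved with transcript length across all genes. For genes with a longest coding transcript up to 2 kb the median log2 ratio of RAM siRNA polysome replicate 2 to the other 3 was -0.74, and for genes over 8 kb it was 0.83. The members' transcripts run from 2.30 kb (Sparc) to 14.2 kb (Hspg2), against a median of 3.15 kb for all genes. In RAM siRNA polysomes the members' displacement also went past that of their length bins, since even Sparc, in the bin with a median of -0.02, was 1.65-fold higher in that library. The part of length or of any other property of that library was not tested, and the calls in polysomes and the members' changes there are therefore given with and without replicate 2. Other polysome values include it.

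**Figure D1:**
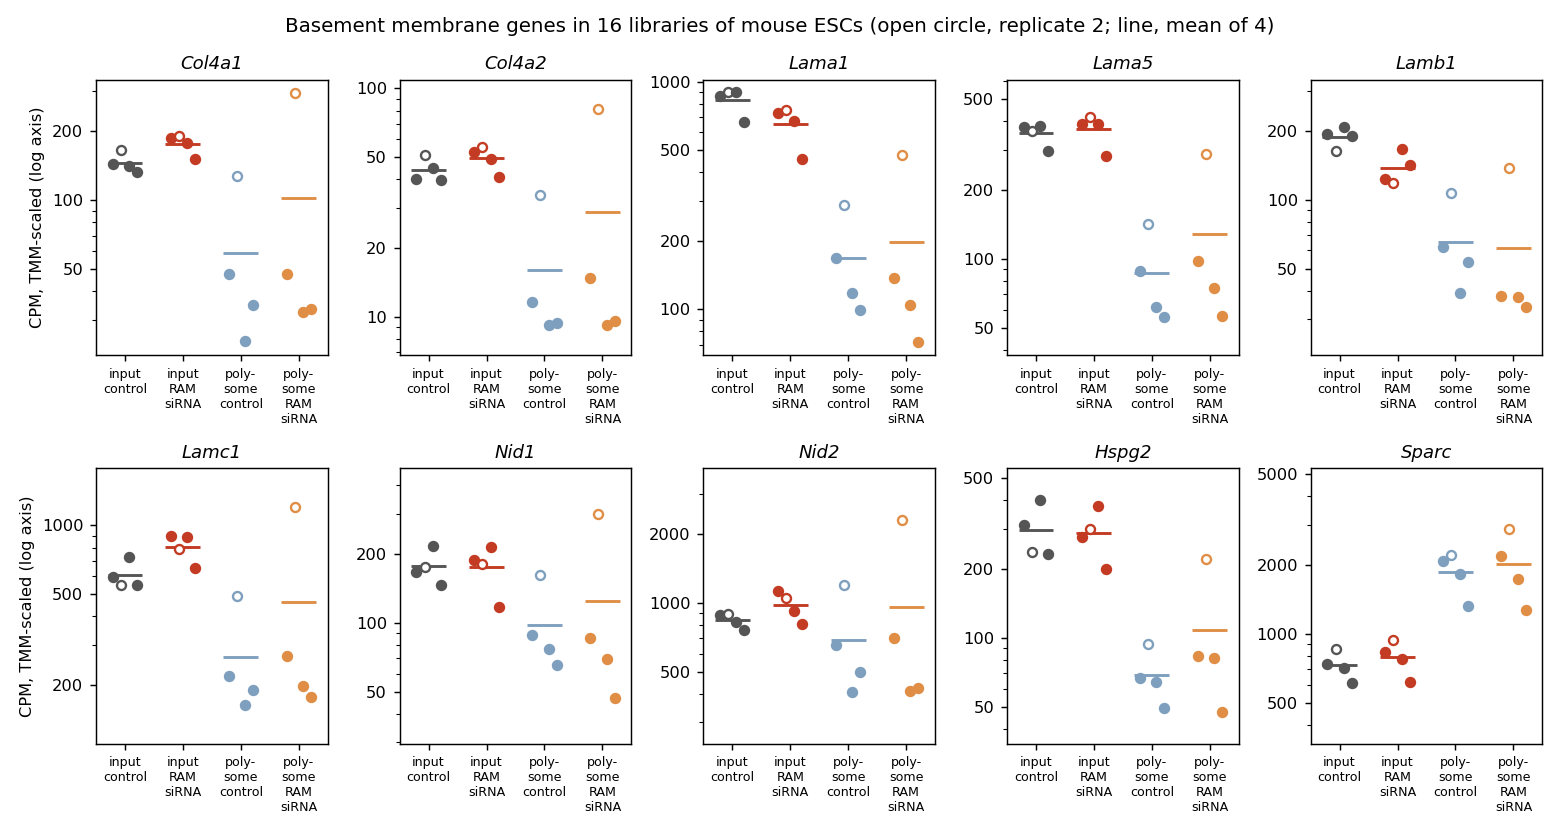
CPM of the 10 genes (log axis, scaled by TMM factors) in the 4 groups, with 1 point per library, an open circle for replicate 2 and a line at the mean of 4. The input groups lie close together, 9 of the 10 genes have lower means in polysomes than in input and Sparc a higher one, and the open circle is the top point of every polysome group.

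Per kb of transcript, Sparc was the most abundant of the 10 in control input, at 318 ± 44.6 CPM per kb, followed by Nid2 at 172 ± 12.4 (SD, n = 4). Lama1 (87.6 ± 11.9 CPM per kb) and Lamc1 (79.6 ± 11.2) came next with overlapping ranges. Lamb1 (32.7), Lama5 (31.1), Nid1 (29.1), Col4a1 (22.1) and Hspg2 (20.9) followed in means, and each overlapped its neighbour in that order. Col4a2 was lowest at 6.84 ± 0.830 CPM per kb and its libraries did not overlap those of Hspg2. In RAM siRNA input, Lamc1 (105.8 ± 15.0 CPM per kb) stood above Lama1 (68.6 ± 14.1) without overlap, and Lamb1 (23.8 ± 3.82) had moved below Nid1 and Col4a1 in means. With exons of all annotated transcripts merged in place of the longest coding transcript, the level of Lamb1 in control input was 19.1 CPM per kb and that of Sparc 193 CPM per kb. By that length Lamb1 was already below Nid1 (25.5 CPM per kb) and Col4a1 (19.6 CPM per kb) in control input means. The 10 genes together took 0.388% to 0.472% of the counts of a control input library and 0.366% to 0.494% of a RAM siRNA input library.

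In input, the summed level of the 10 genes overlapped between control (3628 to 4565 CPM) and RAM siRNA (3474 to 4805 CPM). Of the laminin chains, Lamb1 and Lamc1 moved in opposite directions, and Lama1 and Lama5 were not called in the fit without a replicate block. Lamb1 fell and Lamc1 rose in edgeR's quasi-likelihood test, and these 2 of 10 were called at an adjusted p under 0.05, where 5.94% of all genes tested were called lower and 6.95% higher. Libraries with the same replicate number deviated together, and a fit with the replicate number as a block called 6 of 10, Lama1 and Lamb1 lower and Col4a1, Col4a2, Lamc1 and Nid2 higher. That fit called 19% of all genes lower and 20.3% higher. Values given below without mention of the block are from the fit without it. The members' median log2 fold change was 0.08 without the block and 0.08 with it, and the median of all genes was 0.00. For no member did all RAM siRNA libraries lie below or above all control libraries, a pattern that 8.62% and 9.39% of all genes showed. In RNA from bulk cultures, a change in the share of cells that express a gene and a change in RNA per cell cannot be told apart.

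Both type IV collagen chains rose in RAM siRNA input in edgeR's fit with the replicate block, and neither did in edgeR's fit of all 8 libraries without it. Col4a1 was at 144, 166, 141 and 133 CPM in control input (replicates 1 to 4) and at 188, 191, 178 and 151 CPM in RAM siRNA input. It was higher in 4 of 4 same-numbered pairs, by 0.18 to 0.38 on the log2 scale, and only replicate 4 of the RAM siRNA libraries lay within the control range. It rose by 0.27 on the log2 scale with the replicate block (SE 0.05, adjusted p = 6.37e-05), and was not past the threshold without it (0.28, SE 0.09, adjusted p = 0.0729). Without the block Col4a1 was called by DESeq2 (0.27, adjusted p = 0.0459), within replicates 1 and 2 only (adjusted p = 0.0131) and without RAM siRNA replicate 4 (adjusted p = 0.00937). Col4a2 was at 40.3, 51.4, 45.0 and 39.8 CPM in control input and at 52.7, 55.4, 49.04 and 41.2 CPM in RAM siRNA input, again higher in 4 of 4 pairs with overlapping groups. It rose by 0.17 with the block (SE 0.06, adjusted p = 0.021), but not without the block (0.17, SE 0.11, adjusted p = 0.346), and the call with the block was lost without replicate 1 (0.09, adjusted p = 0.225) and in DESeq2 with the block (0.16, adjusted p = 0.114). Within a library, Col4a1 reads per transcript length were 3.06 to 3.48 times those of Col4a2 in control input and 3.37 to 3.59 times in RAM siRNA input. In the assembled protein the usual trimer holds more alpha 1 than alpha 2 chains.

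Of the laminin alpha chains, Lama1, the chain of laminin-111, was lower in RAM siRNA input with the block and Lama5, the chain of laminin-511, was not called. Lama1 (chr17:67697259-67822647) was at 871, 902, 899.7 and 667 CPM in control input and at 727, 751, 676 and 458 CPM in RAM siRNA input. It was lower in 4 of 4 pairs, by 0.26 to 0.54 on the log2 scale, but replicate 4 was the lowest library of both groups and made them overlap. Lama1 fell by 0.37 with the block (SE 0.05, adjusted p = 4.9e-06) and was not past the threshold without it (-0.36, SE 0.15, adjusted p = 0.143). Without the block Lama1 was called lower when no filter on low counts was used (-0.38, adjusted p = 0.00861) and within replicates 1 and 2 only (-0.26, adjusted p = 0.00765). Lama5 (chr2:180176373-180225859) was at 297 to 381 CPM in control input and 282 to 416 CPM in RAM siRNA input. Its log2 fold change was 0.06 (SE 0.12, adjusted p = 0.806) without the block and 0.05 (SE 0.05, adjusted p = 0.419) with it.

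Lamb1 and Lamc1 encode the beta and gamma chains that laminin-111 and laminin-511 share, and they moved apart. Lamb1 (chr12:31265234-31329644) was at 195, 164, 208 and 189.7 CPM in control input and at 124, 118, 167 and 142 CPM in RAM siRNA input. All 4 pairs were lower, by 0.31 to 0.66 on the log2 scale, and the groups touched only where RAM siRNA replicate 3 exceeded control replicate 2. Lamb1 fell by 0.46 (SE 0.11, adjusted p = 0.0199), or by 0.46 with the block (SE 0.05, adjusted p = 3.39e-07). Lamc1 (chr1:153218922-153332786) was at 597, 549.7, 730.0 and 549.8 CPM in control input and at 897, 792, 887 and 651 CPM in RAM siRNA input. All 4 pairs were higher, by 0.24 to 0.59, and RAM siRNA replicate 4 lay below control replicate 3. Lamc1 rose by 0.41 (SE 0.12, adjusted p = 0.046), or by 0.41 with the block (SE 0.05, adjusted p = 3.9e-06). Without the block, leaving out control replicate 1, RAM siRNA replicate 1 or RAM siRNA replicate 2 ended both calls, with adjusted p-values of 0.0622 to 0.0687 for Lamb1 and 0.0904 to 0.140 for Lamc1, and leaving out control replicate 2 or 4 or RAM siRNA replicate 3 ended the call of Lamc1 alone (0.109 to 0.132). With the block, both calls held without each replicate number.

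The ratio of Lamc1 to Lamb1 within a library needs no scaling between libraries. Per transcript length it was 2.33, 2.55, 2.67 and 2.20 in the control input libraries and 5.51, 5.08, 4.02 and 3.48 in the RAM siRNA input libraries. The lowest RAM siRNA value was above the highest control value, and the ratio was higher in 4 of 4 pairs. The polysome libraries showed the same order, with 2.68, 3.49, 3.17 and 2.71 in control and 5.41, 6.68, 4.01 and 3.97 in RAM siRNA polysomes, replicate 2 again being the highest library of each polysome group. The ratio of Lama1 to Lamb1, both of which were lower in input, was 2.13 to 3.34 in control input and 1.96 to 3.85 in RAM siRNA input and did not separate the groups. The ratio of Lamc1 to Lama1 did, at 0.762 to 1.03 in control input and 1.32 to 1.78 in RAM siRNA input, higher in 4 of 4 pairs. In polysomes it was 1.64 to 2.395 and 2.35 to 3.17, with overlap, and also higher in 4 of 4 pairs. These ratios were chosen after the values of their members were seen and carry no test.

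**Figure D2:**
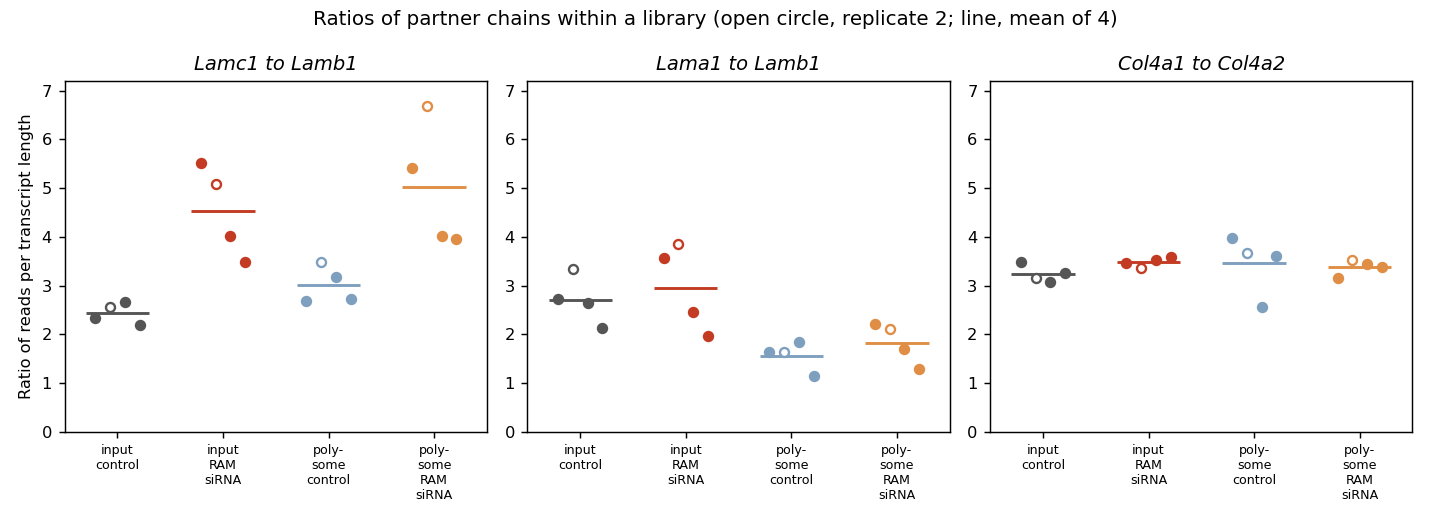
Ratio of reads per transcript length between partner chains in each library, with an open circle for replicate 2 and a line at the mean of 4. Lamc1 to Lamb1 lies between 2.20 and 3.49 in the 8 control libraries and between 3.48 and 6.68 in the 8 RAM siRNA libraries, whereas Lama1 to Lamb1 and Col4a1 to Col4a2 overlap between siRNAs in both fractions.

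The nidogens connect laminin with type IV collagen, and Nid2 but not Nid1 was called in input with the block, the difference between them not being tested. Nid2 (chr14:19751265-19811787) was at 883, 892, 826 and 762 CPM in control input and at 1132, 1051, 921 and 809 CPM in RAM siRNA input, higher in 4 of 4 pairs with overlapping groups. It rose by 0.21 with the block (SE 0.05, adjusted p = 0.00144) and not without it (0.22, SE 0.11, adjusted p = 0.212), where it was called within replicates 1 and 2 only (adjusted p = 0.00507) and without RAM siRNA replicate 4 (adjusted p = 0.027). Nid2 shares 437 exonic bases with Rtraf on the opposite strand, and the strand setting used for counting is not given in the sources used here. Nid1 (chr13:13437551-13512269) was at 146 to 218 CPM in control input and 118 to 215 CPM in RAM siRNA input. Its pairs were split 2 and 2, and its log2 fold change was -0.02 (SE 0.17, adjusted p = 0.966), or -0.03 with the block (SE 0.06, adjusted p = 0.696).

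Perlecan and Sparc were not called in input in either fit. Hspg2 (chr4:137468769-137570630) was at 232 to 403 CPM in control input and 201 to 376 CPM in RAM siRNA input, with a log2 fold change of -0.04 (SE 0.20, adjusted p = 0.918), or -0.04 with the block (SE 0.06, adjusted p = 0.644). With the block and without replicate 2 it was called lower (-0.16, adjusted p = 0.0269). Sparc (chr11:55394500-55423183) was at 740, 862, 714 and 612 CPM in control input and at 833, 938, 775 and 619.6 CPM in RAM siRNA input. It was higher in 4 of 4 pairs by at most 0.17, with a log2 fold change of 0.11 (SE 0.13, adjusted p = 0.627), or 0.11 with the block (SE 0.04, adjusted p = 0.0562). With the block and without replicate 4 it was called higher (0.14, adjusted p = 0.00546).

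**Figure D3:**
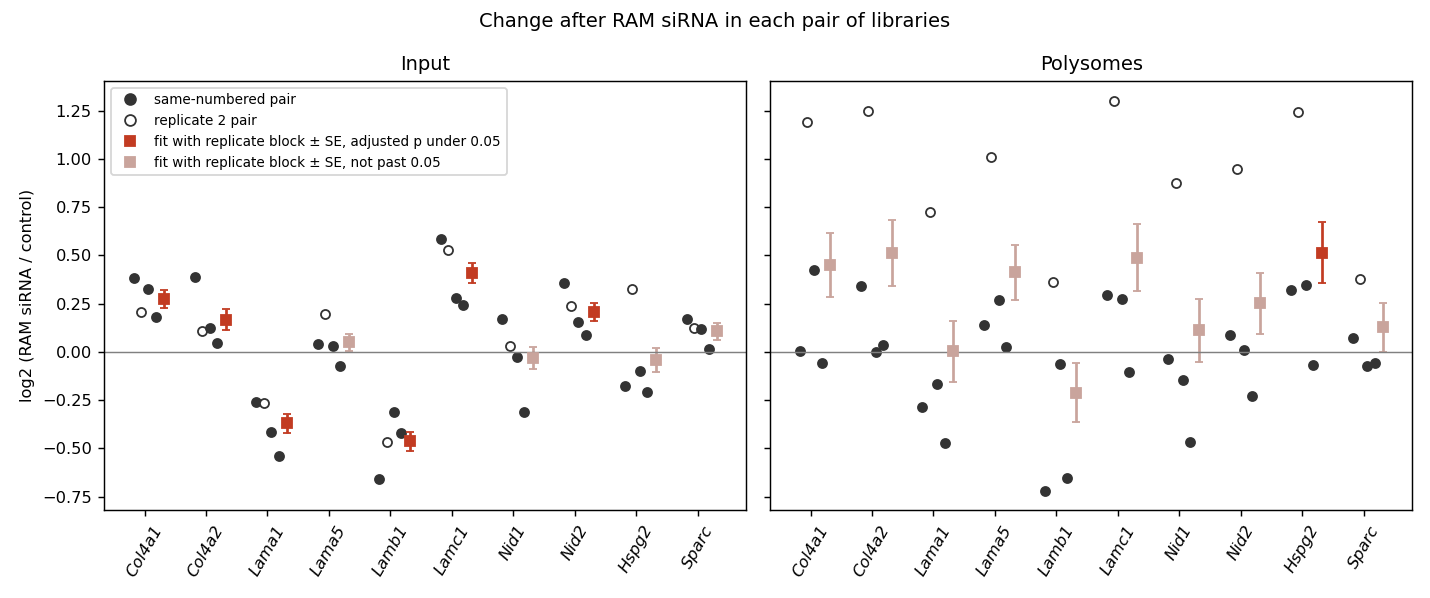
Log2 ratio of RAM siRNA to control for each same-numbered pair of libraries (circles, open for replicate 2) and the fit with the replicate block ± SE (squares, dark where the adjusted p was under 0.05), in input and in polysomes. In input all 4 pairs of Lama1 and Lamb1 are below 0 and all 4 of Col4a1, Col4a2, Lamc1, Nid2 and Sparc above it, while in polysomes the open circle is the highest point for all 10 genes.

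In polysomes, no member was called without the block (edgeR's quasi-likelihood test, lowest adjusted p 0.731). None of the 10 had an unadjusted p under 0.05, which 9% of all genes did, and DESeq2 called none of the 7 members for which it gave an adjusted p (it gave none for Col4a1, Col4a2 and Lamc1). Few genes were called at all, 0.0234% lower and 0% higher. With the block, Hspg2 was the 1 member called, higher by 0.52 on the log2 scale (SE 0.16, adjusted p = 0.0415), where 4.97% of all genes were called lower and 9.68% higher. Hspg2 was at 66.6, 93.9, 64.3 and 49.5 CPM in control polysomes and at 83.3, 222, 81.8 and 47.2 CPM in RAM siRNA polysomes, so 3 of 4 pairs were higher and replicate 2 far more than the others. The call was lost without replicate 1 (0.56, adjusted p = 0.0851). No member had all RAM siRNA polysome libraries below or above all control ones, as 4.38% and 2.18% of all genes had.

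The size and direction of the members' polysome values moved with replicate 2. Leaving out RAM siRNA polysome replicate 2 alone changed the sign for 8 of 10 members, all but Lamb1 and Hspg2. That omission is unbalanced, since control polysome replicate 2, also the highest of its group for all 10 members, stayed in. Lamc1 was at 220, 490.3, 163 and 190.3 CPM in control polysomes and at 269, 1209, 197 and 177 CPM in RAM siRNA polysomes. Its log2 fold change of 0.83 (SE 0.63) became -0.25 when RAM siRNA polysome replicate 2 alone was left out, and 1.32 without control polysome replicate 2. Without both of these libraries it was 0.23, or 0.21 with the block. Col4a1 was at 47.4, 128, 24.2 and 34.8 CPM in control polysomes and at 47.6, 294, 32.5 and 33.5 CPM in RAM siRNA polysomes, and its value went from 0.83 (SE 0.78) to -0.57 and 1.57 in the same way and was 0.16 without both libraries, or 0.18 with the block. Without both and without the block, the members that changed sign were Lama1, from 0.27 to -0.23, and Nid1, from 0.39 to -0.12. Lamb1 went from -0.04 to -0.43. The others moved nearer to 0, Col4a2 from 0.86 to 0.21, Lama5 from 0.60 to 0.21, Nid2 from 0.51 to 0.03, Hspg2 from 0.70 to 0.30 and Sparc from 0.16 to 0.05. Without replicate 2 in both groups, the fit with the block called 4 members, 2 in each direction, beside 14.3% of all genes lower and 21.3% higher. Lama1 (-0.24, adjusted p = 0.0226) and Lamb1 (-0.42, adjusted p = 0.00324) were lower, as in input, and Lama5 (0.20, adjusted p = 0.047) and Hspg2 (0.27, adjusted p = 0.0216) were higher. Without the block no member was called without replicate 2. Lamb1 was at 62.2, 106.6, 39.0 and 53.2 CPM in control polysomes and at 37.8, 137, 37.4 and 33.8 CPM in RAM siRNA polysomes, lower in 3 of 4 pairs.

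The change of polysome loading, the log2 change in polysomes less that in input, was not called for any member by edgeR's quasi-likelihood test with or without the block. DESeq2 called 0 members, a count in which members without an adjusted p cannot appear. Of all genes tested, 0% were called lower and 0% higher without the block, and 0.0156% lower and 0% higher with it. The members' values ran from 0.00 (Sparc, SE 0.32) to 0.70 (Hspg2, SE 0.51) without the block, with a median of 0.45 against 0.00 for all genes, and with the block from -0.03 to 0.51 with a median of 0.17 against -0.02. None was past an unadjusted threshold of 0.05 without the block, as 0.781% of all genes were. With the block Hspg2 was (edgeR, unadjusted p = 0.0241, adjusted p = 0.955), as were 4.97% of all genes. For Hspg2 the standard error of 0.51 without the block was large beside its value of 0.70, so the missing call does not show the absence of a change. That standard error was 0.38 without every library of replicate 2. With all libraries and without the block, the standard errors of the other members ran from 0.32 (Sparc) to 0.85 (Col4a1). Their missing calls do not show the absence of a change either. Without every library of replicate 2 the members' median was -0.08 in both fits, against -0.04 for all genes, 3 of 10 values were above 0, and no member was called (lowest adjusted p = 0.0597, Hspg2 with the block, by edgeR's quasi-likelihood test).

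In control cells, 8 of the 10 transcripts were less abundant in polysomes than in input and Sparc was more abundant. Input and polysome RNA were purified by different methods, so effects of fraction and of purification cannot be told apart in these values. The fit called 8 members lower and 1 higher, where 34.3% of all genes were called lower and 33.1% higher, and with the block the same numbers of members were called beside 37.2% and 35.1% of all genes. Lama1 was at 168, 288, 118 and 99.3 CPM in control polysomes, all below its input libraries, a log2 difference of -2.35 (SE 0.30, adjusted p = 3.4e-05). Hspg2 (-2.15, SE 0.23, adjusted p = 9.97e-06) and Lama5 (-2.07, SE 0.26, adjusted p = 3.7e-05) were lower by similar amounts. Lamb1 (-1.57, SE 0.26), Col4a2 (-1.49, SE 0.37), Col4a1 (-1.35, SE 0.41), Lamc1 (-1.23, SE 0.30) and Nid1 (-0.89, SE 0.26) followed, with adjusted p-values of 0.000213 to 0.0122. Nid2 was not called (-0.33, SE 0.28, adjusted p = 0.308), or -0.45 with the block (adjusted p = 0.0881). Without every library of replicate 2 it was called lower (-0.69, adjusted p = 0.00877), and the other lower members were called again with larger differences (Lama1 -2.69, Lamc1 -1.74), where 32.3% of all genes were called lower and 32% higher. Within replicates 1 and 2 only, 4 members (Lama1, Lama5, Lamb1 and Hspg2) were called lower and Sparc higher (all genes 36.1% and 33.1%), and Nid2 was at 0.00.

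Sparc was at 2082, 2211, 1837 and 1329 CPM in control polysomes, each above every control input library. Its log2 difference was 1.31 (SE 0.18, adjusted p = 5.61e-05), higher in 4 of 4 pairs, and in RAM siRNA cells its polysome libraries (2188, 2872, 1746 and 1279 CPM) also lay above its input libraries. Of 12125 genes with a coding transcript length, 97.1% had a lower polysome to input ratio than Sparc.

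The ratio tended to be lower for longer transcripts, among the members as among all genes, with exceptions such as Lamb1 (5.78 kb), which was lower than the 4 members of 6 to 8 kb. The 3 members over 8 kb (Lama1, Lama5 and Hspg2) had the lowest ratios, and genes of that length had a median of -1.0, with 49.9% below -1. In the bin of 6 to 8 kb (median -0.68) stood Col4a1, Col4a2, Lamc1 and Nid1, in that of 4 to 6 kb (median -0.34) Lamb1 and Nid2, and in that of 2 to 4 kb (median 0.22) Sparc. With all libraries included, Nid2 lay at the median of its bin and the 8 members called lower were below theirs. Leaving out 1 library gave Nid2 ratios from -0.72 to -0.13, so its place depended on the libraries used. The rank correlation of length with the ratio was -0.41 across the 12125 genes and -0.79 across the 10 members, which share the same 8 libraries, and the bins were set after seeing the data. Among genes over 4 kb, 2.4% had a lower ratio than Lama1, 3.6% than Hspg2 and 58.9% than Nid2.

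**Figure D4:**
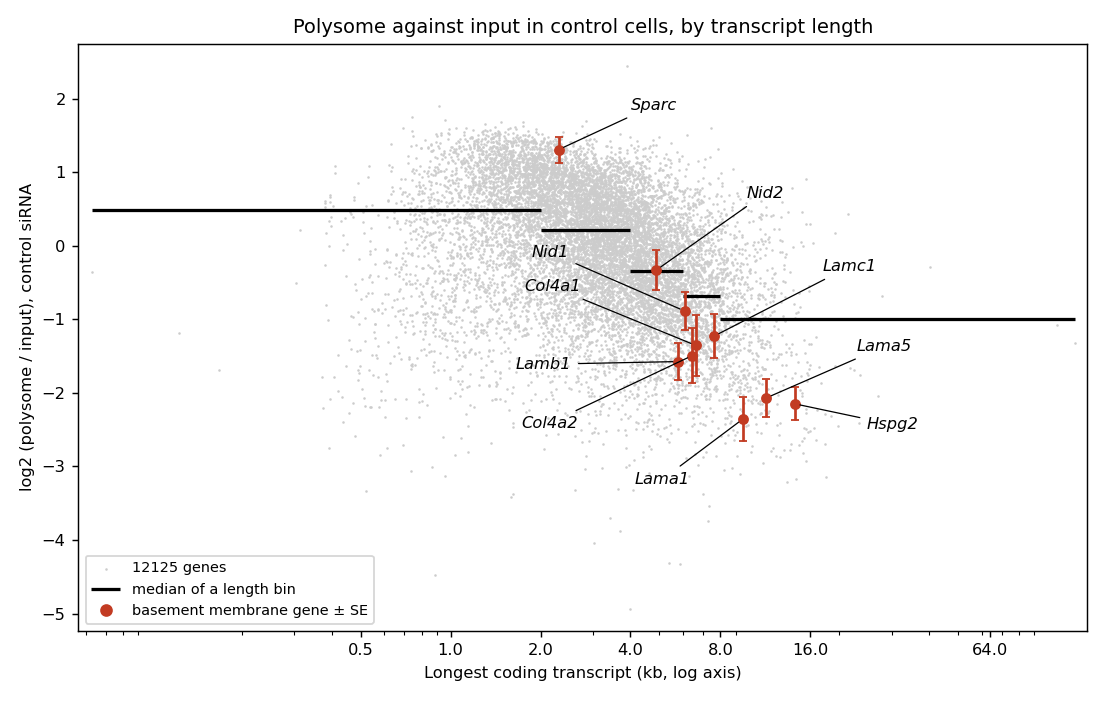
Log2 ratio of polysome to input in control cells against the length of the longest coding transcript (kb, log axis) for 12125 genes (grey), with the median of each length bin (lines) and the 10 members ± SE (red). The members fall from Sparc at 1.31 and 2.30 kb to Lama1, Lama5 and Hspg2 below -2 at over 8 kb, and 8 of them lie below the line of their bin.

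The counts of the following lists stand beside the shares of all genes called in input, 19% lower and 20.3% higher with the block and 5.94% and 6.95% without it. The other basement membrane components were partly expressed. Of 25 listed, 15 passed the filter, and with the block 2 were lower and 7 higher in input (all genes 19% and 20.3%; without it 1 and 1, Frem2 and Col18a1), with a median log2 fold change of 0.17. The other type IV collagen chains, Col4a3 to Col4a6, were all below the filter. Frem2, an extracellular matrix protein of the Fraser complex, fell from 18.5 ± 4.61 to 10.8 ± 2.28 CPM (-0.78, SE 0.18, adjusted p = 0.0143), and its partner Fras1, at only 2.11 ± 0.665 and 3.26 ± 0.484 CPM, rose with the block alone (0.64, SE 0.17, adjusted p = 0.00637). Fibulin 1 (Fbln1) rose with the block by 0.37 (SE 0.07, adjusted p = 0.000235), from 21.8 ± 3.17 to 28.3 ± 3.38 CPM. Agrin (Agrn), the most abundant of the list at 363 ± 62.5 CPM in control input, rose by 0.16 with the block (SE 0.05, adjusted p = 0.0156). Col18a1, which encodes the core protein of type XVIII collagen, rose in both fits (0.37, SE 0.09, adjusted p = 0.018), and Tinagl1 was the other gene lower with the block (-0.23, SE 0.08, adjusted p = 0.0192). In polysomes 4 of the 15, Fbln1, Smoc1, Fras1 and Hmcn1, were higher with the block (all genes 9.68%) and none without. Genes named here from counts, beyond the largest changes and the most abundant of each list, were chosen after their values were seen.

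The next list held genes for the folding, modification, export and cross-linking of collagens. Of 28 listed 24 passed the filter, and in input 1 was lower and 11 were higher with the block (all genes 19% and 20.3%), and 1 and 5 without it (Sec23a lower and P4ha2, P3h2, P3h3, Loxl1 and Pxdn higher), with a median of 0.15. Pxdn, peroxidasin, which forms sulfilimine cross-links in type IV collagen, rose from 45.0 ± 2.47 to 79.8 ± 5.62 CPM (0.82, SE 0.07, adjusted p = 6.27e-05, SD, n = 4 each). The prolyl 3-hydroxylases P3h2, at 0.954 ± 0.325 and 1.76 ± 0.390 CPM (0.87, SE 0.27, adjusted p = 0.0492), and P3h3, at 4.17 ± 0.855 and 6.99 ± 0.631 CPM (0.74, SE 0.15, adjusted p = 0.00805), rose as well. P4hb, protein disulfide isomerase and the most abundant of the list at 995 ± 85.2 CPM, was not called (0.05, SE 0.09, adjusted p = 0.798). In polysomes 8 of the 24, Pxdn among them, were higher with the block (all genes 9.68%). In control cells 17 of the 24 were higher in polysomes than in input and 1 lower (all genes 33.1% and 34.3%).

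Receptors that bind basement membranes were called in both directions, the lower ones at about the share of all genes. Of 21 listed 19 passed the filter, and in input 4 were lower and 7 higher with the block (all genes 19% and 20.3%), and 2 and 1 without it (Ddr2 and Sdc1 lower and Itgb5 higher), with a median of 0.07. Ddr2, a collagen receptor tyrosine kinase, fell from 215 ± 16.6 to 157 ± 17.9 CPM (-0.45, SE 0.09, adjusted p = 0.00849). Itga1, the alpha chain of a collagen-binding integrin, fell with the block alone (-0.49, SE 0.08, adjusted p = 3.59e-05), and Itga7, of a laminin-binding integrin, rose with the block alone from a low level of 2.91 ± 0.508 to 4.04 ± 0.649 CPM (0.47, SE 0.14, adjusted p = 0.0122). Itga6, of another laminin-binding integrin and the most abundant of the list at 736 ± 84.6 CPM, was not called (0.07, SE 0.12, adjusted p = 0.739). The other genes lower with the block were Itga3 (-0.20, SE 0.04, adjusted p = 0.00081) and the syndecan Sdc1 (-0.35, SE 0.04, adjusted p = 1.72e-06). In polysomes Sdc1 was lower and Itgb5 and Sdc3 were higher with the block, about the shares of all genes (4.97% and 9.68%). Without the block, no gene of any list described here was called in polysomes.

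Matrix proteases and their inhibitors had the highest median of the 4 lists, 0.30 in input, with 1 of 17 tested genes lower and 10 higher with the block (all genes 19% and 20.3%) of 19 listed. Without the block 1 was lower and 7 were higher (all genes 5.94% and 6.95%). Heparanase (Hpse), which cleaves the heparan sulfate chains of perlecan and other proteoglycans, rose from 3.10 ± 0.641 to 6.50 ± 0.664 CPM (1.06, SE 0.16, adjusted p = 0.00138). The inhibitor Timp3 (0.74, SE 0.17, adjusted p = 0.0157) and the gelatinase Mmp9 (0.69, SE 0.21, adjusted p = 0.0457) rose too, the latter from 1.48 ± 0.396 CPM. Ctsl, cathepsin L and the most abundant of the list at 509 ± 72.3 CPM, rose with the block by 0.30 (SE 0.04, adjusted p = 1.34e-05). The lower gene was the inhibitor Timp1 (-0.58, SE 0.10, adjusted p = 0.00365), opposite in direction to Timp3. In polysomes Timp1 was again lower and 7 of the 17 were higher with the block (all genes 4.97% and 9.68%). Without replicate 2 the fit with the block called 14.3% of all genes lower and 21.3% higher in polysomes. It then called 1 lower and 3 higher of the 15 other basement membrane components, 2 and 9 of the 24 collagen processing genes, 4 and 4 of the 19 receptors and 1 and 8 of the 17 proteases and inhibitors.

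The ESC label was checked against 10 ESC markers, all of which passed the filter. In control input Pou5f1 was at 483 ± 46.2, Nanog at 259 ± 18.5 and Sox2 at 259 ± 15.95 CPM (SD, n = 4 each), and Tdgf1 was the most abundant marker at 2118 ± 193 CPM. The summed level of the 10 was 5033 to 5410 CPM in control input and 4173 to 4790 CPM in RAM siRNA input, without overlap. With the block 9 of 10 were lower and none higher in input (without it 4, Nanog, Esrrb, Fgf4 and Dppa5a, and 0), with Fgf4 (-0.42, SE 0.09, adjusted p = 0.00809), Dppa5a (-0.36, SE 0.07, adjusted p = 0.00701) and Nanog (-0.29, SE 0.07, adjusted p = 0.0205) the largest changes, here from the fit without the block. Pou5f1 was lower with the block (-0.19, SE 0.04, adjusted p = 0.00113) and Sox2 was not called (-0.09, adjusted p = 0.0887 with the block). In polysomes their summed level was lowest in RAM siRNA replicate 2, at 4465 CPM against 6916 to 7842 CPM in the other 3 libraries, and none of the 10 was called there in either fit. Without replicate 2, 2 of the 10 were lower there with the block (all genes 14.3%).

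Primitive and parietal endoderm make much basement membrane, so 17 of their markers were listed, of which 9 passed the filter and 8 did not. In input 1 was lower and 6 were higher with the block (without it 0 and 5, Gata6, Dab2, Amn, Lrp2 and Pth1r). The defining markers were near 0 or low in control input, Gata4 at 0.504 ± 0.0839, Sox17 at 0.714 ± 0.278, Gata6 at 2.82 ± 0.392 and Sox7 at 4.35 ± 0.418 CPM. Ttr had no count in any input library, and Plat also stands in the protease list. Gata6 rose (0.61, SE 0.15, adjusted p = 0.0196) and Sox7 fell with the block (-0.79, SE 0.17, adjusted p = 0.00113), while Sox17 was not called (0.49, adjusted p = 0.164 with the block). Pth1r (0.92, SE 0.21, adjusted p = 0.0146) and Amn (0.67, SE 0.20, adjusted p = 0.0418) rose from 1.303 ± 0.134 and 2.08 ± 0.471 CPM. Lrp2, megalin, the most abundant of the list and also made by other epithelia, went from 265 ± 50.6 to 370 ± 44.4 CPM (0.48, SE 0.13, adjusted p = 0.030). Summed, the list was at 288, 254, 369 and 277 CPM in control input and at 436, 393, 459 and 353 CPM in RAM siRNA input, and without Lrp2 at 30.6 to 33.7 and 33.9 to 45.7 CPM. In polysomes 1 was lower and 5 were higher with the block (all genes 4.97% and 9.68%), or 1 and 6 without replicate 2 (all genes 14.3% and 21.3%), and its highest sum was again in RAM siRNA replicate 2, at 227 CPM against 87.0 to 122 CPM in the other 3. Without Lrp2 that sum was 61.0 CPM against 35.6 to 47.2 CPM. The part of such cells in the members' values was not tested.

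Of 10 fibroblast or feeder markers 4 passed the filter. Col1a1 was at 1.09 ± 0.167 and Col1a2 at 0.289 ± 0.151 CPM in control input, and Col3a1, Lum and Dcn had no count in any control input library. In input none of the 4 was lower and 2 were higher with the block, Col5a2 (0.56, SE 0.13, adjusted p = 0.00167) and Pdgfrb (0.52, SE 0.12, adjusted p = 0.00131), and without it Pdgfrb was. Col5a1 was the most abundant at 20.7 ± 2.81 CPM. The summed level was 32.3 to 42.2 CPM in control input and 36.5 to 52.9 CPM in RAM siRNA input. In polysomes Col5a2 and Pdgfrb were higher with the block (all genes 9.68%), and 1 of the 4 was without replicate 2 (all genes 21.3%).

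Across libraries many pairs of members varied together, with Lamb1 an exception in input. On deviations from the group mean, the 45 pairs of members had a median Pearson r of 0.71 over the 8 input libraries (range -0.58 to 0.98) and of 0.97 over the 8 polysome libraries (range 0.73 to 1.00), where replicate 2 was the highest library of every member. On log2 CPM over the 8 input libraries, without regard to the siRNA, Lama5 (r = 0.97) and Nid1 (r = 0.95) were closest to the mean profile of the members and Lamb1 was not along it (r = -0.09). That mean includes the member it is compared with, which raises these r. The 5 other genes whose input profile was most like that mean, among 9125 genes with at least 10 CPM, were Itga6 (r = 0.99), Slc1a4 (0.99), Mydgf (0.99), Baz2b (0.98) and Atp1b3 (0.98). Over the 8 polysome libraries their r was 0.90, 0.92, -0.84, 0.96 and 0.45. These are descriptions over 8 libraries that share replicate numbers in pairs, and no r for pairs of other genes is given beside them.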

How the data were processed

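RNA of 46C ESCs was sequenced from 16 libraries, 4 replicates in each of 4 groups, with ribosomal RNA removed and strand kept by the kit. As deposited, the table holds raw read counts per Ensembl gene that the authors made with bcl2fastq, STAR 2.5.1b and HTSeq on mm10; the strand setting of the counting is not given in the sources used here. Identifiers were paired with symbols through a gene name table, in which 495 had no symbol, and 0 columns belonged to other samples. CPM were computed with TMM factors.

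Counts were tested with edgeR 4.0.16 in R 4.3.3 (quasi-likelihood F-test, TMM, Benjamini-Hochberg over the 12805 genes that reached 1 CPM in 10 or more of the 16 libraries), on the 8 libraries of each comparison, and on all 16 for the change of loading, without a replicate term. A gene was called at an adjusted p under 0.05. The SE of an edgeR log2 fold change is its absolute value divided by the square root of the F statistic, worked back from the test. Same-numbered libraries deviated together over 9135 genes (r of 0.400 to 0.797 between the siRNAs in input, 0.625 to 0.944 in polysomes, 0.237 to 0.711 between fractions), so the fit with the replicate number as a block is printed where it changes a call. The labels describe input and polysomes as parts of the same extracts, without stating which libraries share one. Between libraries of a group, chi-square over genes was 3.23 to 197 per gene, where sampling noise alone gives about 1, so none was counted as a copy. The study calls the replicates biological; p-values measure the spread between cultures of 1 line.

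Alternatives were DESeq2 1.42.0, RLE scaling, total counts, no filter, filterByExpr, pairs of replicates and each library left out. DESeq2 with the block, the omission of all replicate 2 libraries, the length bins and the chain ratios were added after seeing the data. The fits were also run on simulated data, whose outcome is not given here, and no call above rests on it. Members and gene lists were chosen with earlier results of these data known. Named were the 10 members, Ramac, and for each list the 3 largest changes in input past the threshold with the block, its most abundant gene and the defining markers, with the 5 genes most like the members' mean input profile. Length is that of the longest coding transcript in GRCm38.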

Additional observations from a re-analysis of the deposited data

Results flagged for a closer look

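Within groups of 4 libraries, a library was marked where its gap to the nearest other, as a share of the group's range, exceeded Dixon's critical value, which chance gives in about 1 in 20 groups. Over the 10 members and 4 groups this marked 9 of 40, and 8 of these were replicate 2 of a polysome group. In RAM siRNA polysomes, replicate 2 held 293.6 CPM of Col4a1 (other libraries 32.5 to 47.6 CPM) and 81.17 CPM of Col4a2 (9.19 to 14.7 CPM). For the laminin chains it held 476.6 CPM of Lama1 (71.6 to 138 CPM), 137.3 CPM of Lamb1 (33.8 to 37.8 CPM) and 1209 CPM of Lamc1 (177 to 269 CPM). For the nidogens it held 298.5 CPM of Nid1 (47.2 to 86.2 CPM) and 2301 CPM of Nid2 (410.4 to 698 CPM). In control polysomes replicate 2 was marked for Col4a2, at 34.1 CPM (9.18 to 11.6 CPM).

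The members share these libraries, so the 8 marks are not independent of each other. The 10 members took 0.725% of the counts of RAM siRNA polysome replicate 2, against 0.221% to 0.343% in the other 3 libraries of the group. In the same library the summed ESC markers were at 4465 CPM (others 6916 to 7842 CPM), the endoderm markers at 227 CPM (87.0 to 122 CPM) and the fibroblast markers at 66.5 CPM (28.4 to 35.8 CPM). Most of the endoderm sum was Lrp2, and without it the endoderm markers were at 61.0 CPM (35.6 to 47.2 CPM). The part of these in the members' values was not tested.

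The ninth mark was control input replicate 4, where Lama1 was at 666.6 CPM and the other 3 libraries at 871 to 902 CPM.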

How the results depend on the processing

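In input, the replicate block raised the genes called from 1651 to 5028 and the members called from 2 to 6. Within replicates 1 and 2 only, 2629 genes and 5 members were called, and DESeq2 with the replicate block called 3149 and 5, all but Col4a2 of the 6. DESeq2 (with Col4a1, 1978 genes) and no filter (with Lama1, 2074 genes) each called 3 members. Within replicates 3 and 4 only, 0 genes and 0 members were called. Nid1 (0.10) and Hspg2 (0.064) changed sign within replicates 1 and 2, and Lama5 (-0.015) within replicates 3 and 4. Leaving out 1 library gave 913 to 2506 genes and 0 to 4 members. It moved Lama5 from -0.020 to 0.17, Nid1 from -0.13 to 0.14 and Hspg2 from -0.20 to 0.14. With the replicate block, leaving out 1 number called 3579 to 4967 genes and 5 to 7 members and moved Lama5 from -0.0015 to 0.091, Nid1 from -0.098 to 0.058 and Hspg2 from -0.16 to 0.015.

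In polysomes, 3 genes and 0 members were called. No filter gave 32 genes, filterByExpr 18, DESeq2 300, the replicate block 1875 genes and 1 member, and DESeq2 with the replicate block 1588 genes and 1 member. Replicates 1 and 2 only and replicates 3 and 4 only each gave 0 genes, and omission of every replicate 2 library gave 1. Lamb1 was at 0.083 within replicates 1 and 2. The members that changed sign to below 0 were Lama1 (-0.23), Nid1 (-0.22), Nid2 (-0.060) and Sparc (-0.0069) within replicates 3 and 4. Without every replicate 2 library they were Lama1 (-0.23) and Nid1 (-0.12). Lamb1, below 0 with all libraries, stayed below it in these settings, at -0.31 and -0.43. DESeq2 with the replicate block put Lama1 at -0.015. Leaving out 1 library gave 0 to 48 genes and 0 members. The log2 fold changes then ran from -0.57 to 1.57 for Col4a1, -0.47 to 1.55 for Col4a2, -0.62 to 0.66 for Lama1, -0.13 to 0.95 for Lama5, -0.78 to 0.30 for Lamb1, -0.25 to 1.32 for Lamc1, -0.47 to 0.75 for Nid1, -0.37 to 0.92 for Nid2 and -0.039 to 0.31 for Sparc. Hspg2 ran from 0.11 to 0.94, without a change of sign. With the replicate block and 1 number left out, the genes called ran from 806 to 4558, the members called from 0 to 4, Lama1 from -0.24 to 0.11 and Nid1 from -0.15 to 0.25.

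The change of loading was called for 0 genes, for 1 by DESeq2 and for 2 with the replicate block, and for 0 with 1 library left out. For polysomes against input, 8628 genes and 9 members were called, 8863 genes and 5 members within replicates 1 and 2 only, where Nid2 was at 0.0043, and 7877 to 8905 genes and 9 to 10 members with 1 library left out. The cause of these shifts was not tested. Other scalings moved the median of all genes by at most 0.089 on the log2 scale.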
